A study of Homo sapiens with 8 samples.

Results

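The 10 genes of the Notch pathway described here were followed in KYSE850 cells, an established line from a human esophageal squamous cell carcinoma, after silencing of KHSRP, which encodes a KH-domain protein that binds RNA. They were the receptors NOTCH1, NOTCH2 and NOTCH3, the ligands JAG1, JAG2 and DLL1, the nuclear partners RBPJ and MAML1, and the target genes HES1 and HEY1. Every probe whose RefSeq accession mapped to one of these symbols was taken, which gave 12 probes for all 10 genes, out of 42405 probes for 20249 named genes on the array. Of these, 10 probes for 9 genes were bright enough to be tested, beside 12125 genes tested in all. One group held 4 arrays of cells transfected with control siRNA and the other held 4 arrays of cells transfected with KHSRP siRNA, a small duplex RNA through which cells degrade the matching mRNA. All cells were of the one line, and the labels do not tell which KHSRP siRNA was used on an array.

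Notch is a receptor that is read out by its own cleavage. A ligand of the Jagged or Delta-like family on a neighbouring cell pulls on the receptor, an ADAM protease and then gamma-secretase cut it, and the freed intracellular part enters the nucleus, where it joins RBPJ and a Mastermind protein such as MAML1 to switch on genes of the HES and HEY families. In stratified squamous epithelium the pathway is known for helping basal cells leave the cell cycle and differentiate.

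Levels are given as log2 signal relative to the probe at the 75th percentile of the same array, so that 0 is the signal of that probe, and a level below 0 is dimmer. Probes differ in how they bind, so levels of different probes were not ranked. Group means were compared with limma, and a gene was called at a Benjamini-Hochberg adjusted p under 0.05 over all tested probes. On the 8 arrays 45.1% to 49.4% of probes passed the scanner's criterion for being well above background, and no spot was saturated. KHSRP itself had a log2 fold change of -3.37 (SE 0.16, limma adjusted p = 5.95e-05), with all 4 KHSRP siRNA arrays below all 4 controls. All 8 squamous epithelial markers examined were well above background on all 8 arrays, among them KRT5 and TP63. Of the markers of other cell types, 1 of 6 for fibroblasts (COL1A1), 0 of 5 for endothelium and 3 of 5 with a probe for leukocytes (CD68, CD14 and CD79A) were bright enough to be tested, and none of these was called. Nothing in the labels says that the 4 arrays of a group came from separate cultures, so the p-values may cover technical spread alone.

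One of the 9 tested genes was called. NOTCH3 rose, and its level about doubled with KHSRP siRNA, while receptors NOTCH1 and NOTCH2, all 3 ligands, RBPJ, MAML1 and HEY1 did not pass the test and HES1 was too dim to be tested. The share of called genes was 6.19% over all 12125 tested genes with 2.14% higher and 4.06% lower after KHSRP siRNA, so that 1 of 9 (11.1%) is a single gene beside that background. Over probes the share was 5.54%, beside 1 of the 10 tested Notch probes, and an unadjusted p under 0.05 was found for 20.8% of genes, beside 2 of 9, NOTCH3 and NOTCH2. The median log2 fold change of the 9 genes was 0.07, beside 0.01 over all tested genes, and 6 of the 9 were positive in sign. The groups did not overlap for 1 of the 9 genes, NOTCH3, beside 16.2% of all tested genes.

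**Figure D1:**
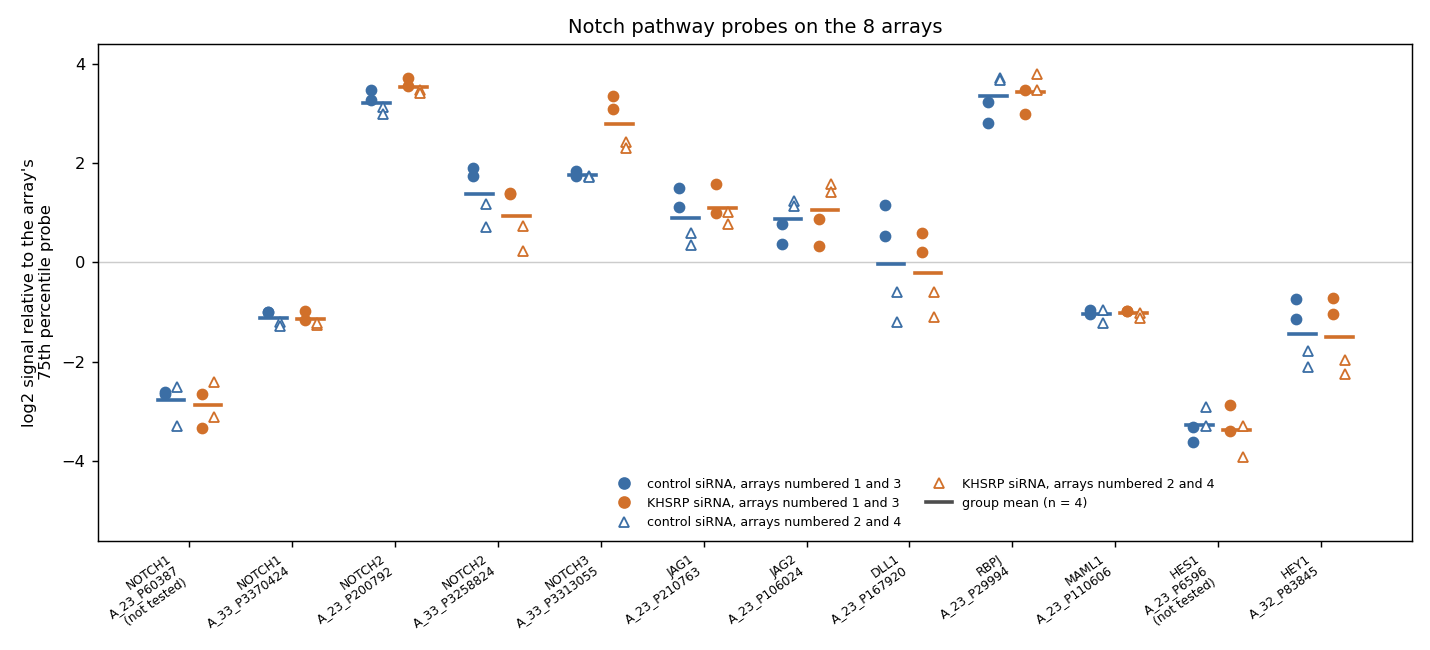
Log2 signal of the 12 Notch probes relative to each array's 75th percentile probe (y axis), with 1 point per array and the mean of each group as a bar; filled circles are the arrays numbered 1 and 3 in the series matrix and open triangles those numbered 2 and 4. NOTCH3 is the probe whose 4 KHSRP siRNA arrays all lie above the 4 controls. The probes of DLL1, HEY1, JAG2 and RBPJ, both NOTCH2 probes and the tested NOTCH1 probe split by array number within both groups.

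NOTCH3 encodes a receptor best known from vascular smooth muscle and also present in squamous epithelium. Its one probe, A_33_P3313055, read 1.75, 1.75, 1.84 and 1.72 on the 4 control arrays and 3.08, 2.42, 2.298 and 3.36 on KHSRP siRNA replicates 1 to 4. The controls lay close together, and the KHSRP siRNA arrays, all higher, were themselves spread, with replicates 1 and 4 above replicates 2 and 3. The mean went from 1.76 ± 0.05 to 2.79 ± 0.51 (SD, n = 4 each), a log2 fold change of 1.03 (SE 0.23, 95% interval 0.49 to 1.56, limma adjusted p = 0.0412) or 2.04-fold (1.41 to 2.95). Changes in RNA per cell and in the share of a kind of cell cannot be told apart in RNA from a whole culture. That holds here and for any gene that follows. The rise was 1.01 among the arrays of the first slide and 1.05 among those of the second, but the call was near its threshold. It was lost with slide as a block (adjusted p = 0.0585, a fit that called 6.88% of all genes and 0 of the 9) and when each array's median replaced the 75th percentile (log2 fold change 0.95, adjusted p = 0.0674), and of the 8 fits that left out 1 array only the one without KHSRP siRNA replicate 3 called it, the other 7 having adjusted p from 0.0525 to 0.111.

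As NOTCH3 was the gene of the set that was called, the stretch just before its start was read from RefSeq (GRCh38.p14), at chr19:15200996-15201115 on the minus strand, from 120 bases before the start to the base before it. The capitals used further on mark TGGGAA, the core of the site that RBPJ binds, and none stand in this stretch.

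NOTCH3: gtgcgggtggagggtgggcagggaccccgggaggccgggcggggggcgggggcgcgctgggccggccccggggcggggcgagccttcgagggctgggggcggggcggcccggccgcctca

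The window of 300 bases from which it comes (250 before the start and 50 after) held 78.3% G and C and no TGGGAA on either strand. Over all 35116 promoter windows of that length in the RefSeq table, 24.0% held the motif at least once on one strand or the other.

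The array number taken as a block changed which receptors were called. In the series matrix the columns of KHSRP siRNA arrays 3 and 4 hold the values of each other's scanner files, so the numbers of the matrix and of the scanner files differ for these 2 arrays, which are of the same group. Arrays sharing a matrix number deviated from their group means together (r from 0.433 to 0.842 over all tested probes for the 4 numbers), whereas for the scanner numbers r was as low as -0.672. With the matrix number as a block NOTCH3 had an adjusted p of 0.0121, and its 4 differences between arrays of the same number were 1.34, 0.67, 1.52 and 0.58. With the scanner number as a block its adjusted p was 0.134. The block by matrix number called 33.0% of all tested genes and 2 of the 9 Notch genes, NOTCH3 and NOTCH2, and the block by scanner number called 0.874% and 0 of 9. The labels do not say which numbering pairs the arrays, and the matrix numbers were taken as pairs because of these same correlations. All results with that block, here and below, rest on this choice.

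NOTCH2, the widely expressed paralogue, had 2 tested probes that moved in opposite directions. At A_23_P200792 the control arrays read 3.27, 3.14, 3.47 and 2.998 and the KHSRP siRNA arrays 3.55, 3.48, 3.405 and 3.72. The KHSRP siRNA arrays were mostly higher, and the groups overlapped through control replicate 3. The log2 fold change was 0.32 (SE 0.14, 95% interval 0.01 to 0.63, limma adjusted p = 0.239), and with the matrix number as a block the adjusted p was 0.0164, the 4 differences within numbers being 0.29, 0.34, 0.25 and 0.41.

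The other NOTCH2 probe, A_33_P3258824, is assigned to a second RefSeq transcript of the gene. It read 1.74, 1.17, 1.89 and 0.72 on the control arrays and 1.37, 0.74, 0.23 and 1.39 on the KHSRP siRNA arrays, so that the groups overlapped widely. The log2 fold change was -0.45 (SE 0.34, 95% interval -1.22 to 0.33, limma adjusted p = 0.552). Within each matrix number, however, the KHSRP siRNA array was the lower one, with differences of -0.36, -0.44, -0.50 and -0.49, and the block by that number gave an adjusted p of 0.00642.

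A probe of NOTCH2NLA moved in the direction of the second NOTCH2 probe. NOTCH2NLA is a partial copy of NOTCH2 that keeps its amino-terminal part, and probes of that part cannot be assigned with certainty, so which of the genes these probes detect is uncertain. Its probe A_33_P3212645 had a log2 fold change of -0.50 (SE 0.35, limma adjusted p = 0.519), was lower in all 4 number pairs and had an adjusted p of 0.00899 with the matrix number as a block, while its other probe was well above background on 0 of 8 arrays. The difference between both NOTCH2 probes on the same array was 1.84 ± 0.35 with control siRNA and 2.61 ± 0.45 with KHSRP siRNA (SD, n = 4 each), a shift of 0.77 for which an exact permutation test, two-sided and added after the values were seen, gave p = 0.0571 (smallest possible 0.0286). That test leaves the array numbers out, and between arrays of the same matrix number the shift was 0.65, 0.77, 0.75 and 0.90.

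NOTCH1, the receptor most tied to squamous differentiation, was not called. Its tested probe was well above background on every array, at levels below 0. At A_33_P3370424 the controls read -0.99, -1.20, -0.997 and -1.29 and the KHSRP siRNA arrays -1.16, -1.25, -1.21 and -0.97. The groups overlapped over nearly their whole range, and the log2 fold change was -0.03 (SE 0.12, limma adjusted p = 0.940). The 95% interval at this probe, which had 1 spot per array, was -0.31 to 0.25 and leaves out changes of the size seen for NOTCH3. Like the p-values, that interval may cover technical spread alone. The second probe of NOTCH1, A_23_P60387, passed the background criterion on 3 of 4 control and 2 of 4 KHSRP siRNA arrays. Its levels ran from -3.33 to -2.41, and it was not tested.

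**Figure D2:**
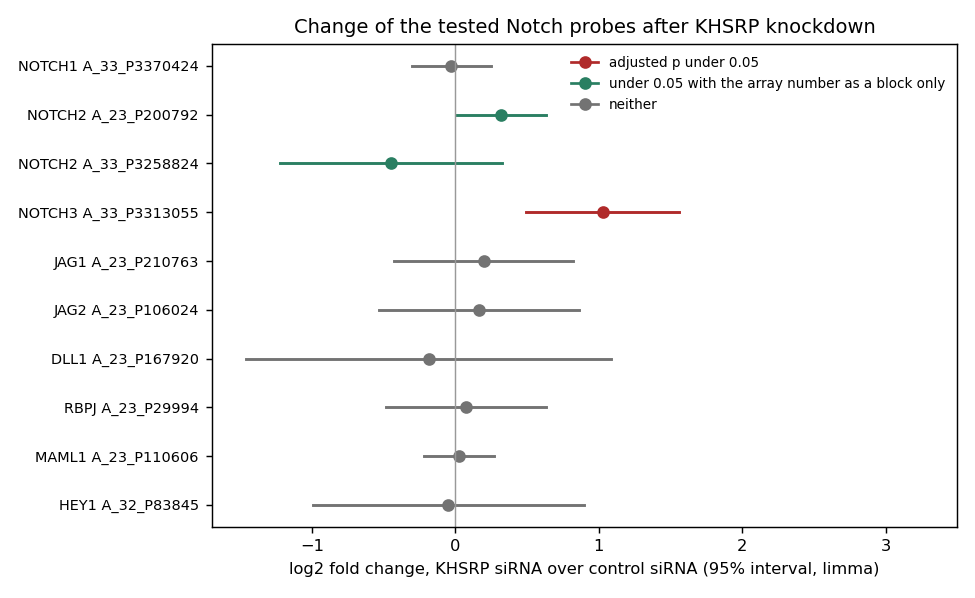
Log2 fold change of KHSRP siRNA over control siRNA for the 10 tested Notch probes (x axis), with the 95% interval from limma as a line. The interval of NOTCH3 lies between 0.49 and 1.56, both NOTCH2 probes fall on opposite sides of 0, and the interval of DLL1 is the widest, from -1.46 to 1.08.

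None of the ligands was called. JAG1, a Jagged ligand of epithelial cells, read 1.12, 0.36, 1.49 and 0.60 on the control arrays and 0.998, 0.78, 1.01 and 1.58 on the KHSRP siRNA arrays (A_23_P210763). High and low arrays were found in both groups, and the log2 fold change was 0.20 (SE 0.27, 95% interval -0.43 to 0.82, limma adjusted p = 0.789). JAG2, the second Jagged ligand, read 0.78, 1.25, 0.38 and 1.13 and then 0.87, 1.59, 1.42 and 0.32 (A_23_P106024). Its groups overlapped too, with the lowest array of all among the KHSRP siRNA arrays, and its log2 fold change was 0.16 (SE 0.30, 95% interval -0.53 to 0.86, limma adjusted p = 0.857).

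DLL1, a Delta-like ligand, was the most variable of the set. It read 0.53, -0.60, 1.15 and -1.20 on the control arrays and 0.21, -0.59, -1.09 and 0.60 on the KHSRP siRNA arrays (A_23_P167920). Arrays of one group differed by more than the group means did, with a log2 fold change of -0.19 (SE 0.56, limma adjusted p = 0.918). The 95% interval ran from -1.46 to 1.08, and with the matrix number as a block the SE was 0.12 (adjusted p = 0.304).

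Of the nuclear partners, RBPJ is the DNA-binding protein through which all Notch receptors act. It read 3.23, 3.71, 2.81 and 3.68 on the control arrays and 3.46, 3.48, 3.80 and 2.99 on the KHSRP siRNA arrays (A_23_P29994). The lowest array was a control and the highest a KHSRP siRNA array, with the rest mixed. The log2 fold change was 0.07 (SE 0.25, 95% interval -0.48 to 0.63, limma adjusted p = 0.925).

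MAML1, the co-activator that locks onto RBPJ and the cleaved receptor, was the steadiest. It read -0.96, -0.95, -1.04 and -1.23 on the control arrays and -0.98, -1.01, -1.11 and -0.98 on the KHSRP siRNA arrays (A_23_P110606). All 8 arrays lay within 0.27 of each other, and the log2 fold change was 0.02 (SE 0.11, 95% interval -0.22 to 0.27, limma adjusted p = 0.945).

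The classical targets gave no called change. HEY1, a repressor switched on by Notch in many tissues, read -1.15, -1.79, -0.73 and -2.11 on the control arrays and -1.04, -1.97, -2.25 and -0.71 on the KHSRP siRNA arrays (A_32_P83845). Each group held 2 higher and 2 lower arrays in about the same place, and the log2 fold change was -0.05 (SE 0.41, 95% interval -0.995 to 0.90, limma adjusted p = 0.975).

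HES1, the repressor that is the best-known Notch target, was close to background. Its probe A_23_P6596 passed the background criterion on 3 of 4 control and 1 of 4 KHSRP siRNA arrays. It read -3.61, -2.90, -3.32 and -3.30 on the control arrays and -3.40, -3.92, -3.29 and -2.88 on the KHSRP siRNA arrays. The means were -3.28 ± 0.29 and -3.37 ± 0.43 (SD, n = 4 each), the groups overlapped, and no fold change was computed because the probe was below the brightness limit in both groups.

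The HES1 promoter is shown because it carries the sites by which RBPJ is classically known, and the stretch is given with the core TGGGAA in capitals. It lies at chr3:194136058-194136087 on the plus strand (RefSeq, GRCh38.p14), and the motifs start 84 and 70 bases before the start of the gene.

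HES1: ttactgTGGGAAagaaagttTGGGAAgttt

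A window with 2 or more copies on either strand was found for 3.80% of all RefSeq promoters. Windows were read for 8 of the 10 genes, and among those 8 only RBPJ, at one of its starts, held the motif beside HES1. RBPJ was read at several starts and each of the others at a single one, and 24.0% of all windows held the motif. DLL1 and HEY1 were not read, so whether their promoters hold the motif was not examined. A match of letters is a description of the sequence and says nothing of binding in these cells.

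Some of these genes, though not all, split by array number within both groups. For DLL1, HEY1, NOTCH1 and NOTCH2 both arrays numbered 1 and 3 in the series matrix (control replicates 1 and 3 with KHSRP siRNA replicates 1 and 4) were above both arrays numbered 2 and 4 in each siRNA group, and for JAG2 and RBPJ they were below. That is 6 of the 9 tested genes, beside 5715 of all 12125 (47.1%). The difference between the 2 kinds of array was 1.74 with control siRNA and 1.25 with KHSRP siRNA for DLL1, 1.01 and 1.24 for HEY1, -0.61 and -0.91 for JAG2, and -0.68 and -0.41 for RBPJ. For NOTCH3 the difference was 0.06 among the controls and 0.86 among the KHSRP siRNA arrays. These are descriptions without a test, and the labels do not say what the numbers stand for.

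Within-group SD ranged from 0.100 for MAML1 to 0.926 for DLL1 with a median of 0.384 over the 9 genes, beside a median of 0.264 over all tested probes. Over the 8 arrays the genes whose levels were most like those of JAG1 were AGO2 (Pearson r = 0.987), THSD1 (r = 0.986) and ARSD (r = 0.979), as a description of 8 points that share the same array numbers.

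**Figure D3:**
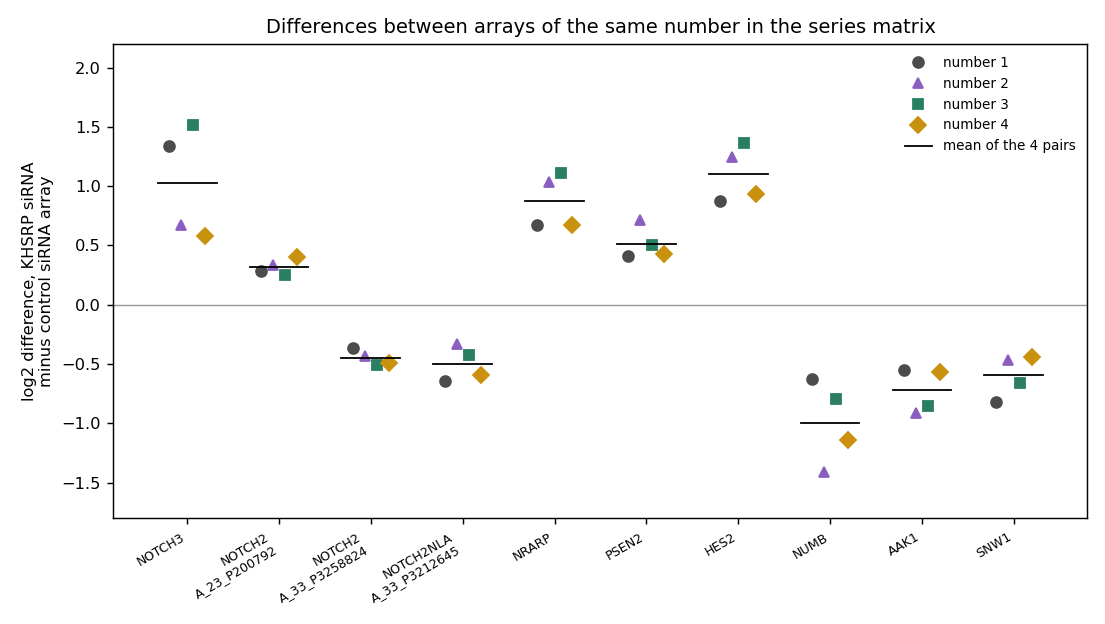
Log2 difference between the KHSRP siRNA array and the control siRNA array of the same number in the series matrix (y axis), with 1 symbol per number and the mean as a line, for genes chosen after their values were seen. The 4 differences of every gene shown lie on one side of 0, from 0.58 to 1.52 for NOTCH3 and from -1.41 to -0.63 for NUMB.

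Another 72 genes of the pathway were grouped by role, and 48 of them were tested. Of these, 4 were called, 2 higher and 2 lower (8.33%, beside 6.19% of all tested genes), 13 had an unadjusted p under 0.05, and the median log2 fold change of the 48 was 0.06. The groups did not overlap for 11 of the 48 (22.9%, beside 16.2%). With the matrix number as a block 20 of 48 (41.7%, beside 33.0%) were called, 12 higher and 8 lower, and with the scanner number as a block 0 were called. A further 13 genes were not well above background on any array.

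In the group that turns Notch over or holds it back, 9 genes were tested and 3 were called (beside 6.19% of all tested genes), and whether the groups of genes differ in their share of calls was not tested. NUMB, an endocytic adaptor that antagonises Notch, fell. Its probe A_23_P88381 read 0.30, 0.71, 0.49 and 0.81 on the control arrays and -0.33, -0.71, -0.33 and -0.31 on the KHSRP siRNA arrays. Every KHSRP siRNA array was below every control, and the log2 fold change was -0.99 (SE 0.15, 95% interval -1.35 to -0.64, limma adjusted p = 0.00928), a 1.99-fold fall. It was called in all 8 fits that left out 1 array, and not with the scanner number as a block (adjusted p = 0.0787). With normexp background correction NUMB was still called, but the fall was smaller (log2 fold change -0.59, limma adjusted p = 0.0320).

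AAK1, a kinase of clathrin adaptors that also binds NUMB, fell. At A_33_P3210585 the controls read 2.87, 2.92, 3.03 and 2.60 and the KHSRP siRNA arrays 2.32, 2.002, 2.03 and 2.18, without overlap. The log2 fold change was -0.72 (SE 0.13, limma adjusted p = 0.0185). The dimmer A_33_P3289218 passed the background criterion on 4 of 4 control and 3 of 4 KHSRP siRNA arrays, so that it entered the test through the controls alone, and had -0.98 (SE 0.19, limma adjusted p = 0.0243). The call at the brighter probe was held in 3 of the 8 fits that left out 1 array, those without control replicate 4 or KHSRP siRNA replicates 1 or 4, and lost in the other 5 (adjusted p from 0.0501 to 0.0642), and it was lost with median scaling (0.0580).

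NRARP, a small ankyrin-repeat protein that is itself a Notch target and promotes loss of the cleaved receptor, rose. It read 1.33, 1.06, 1.65 and 1.31 on the control arrays and 2.004, 2.096, 1.99 and 2.76 on the KHSRP siRNA arrays (A_33_P3337272). The groups stood apart, with KHSRP siRNA replicate 4 well above its fellows, and the log2 fold change was 0.87 (SE 0.21, limma adjusted p = 0.0460) or 1.83-fold. The call was lost in all 8 fits that left out 1 array (adjusted p from 0.0528 to 0.128).

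In the group of enzymes that process ligand and receptor, 1 of 14 tested genes was called (7.14%, beside 6.19% of all tested genes). PSEN2, one of the catalytic presenilins of gamma-secretase, rose from 2.36, 2.30, 2.48 and 2.61 to 2.77, 3.01, 3.04 and 2.99 (A_23_P103398), again without overlap. The log2 fold change was 0.51 (SE 0.12, limma adjusted p = 0.0445) or 1.43-fold, and this call too was lost in all 8 fits that left out 1 array (adjusted p from 0.0558 to 0.134) and with median scaling (0.157). APH1B, another gamma-secretase subunit, had a log2 fold change of 0.33 and the O-glucosyltransferase POGLUT1 one of -0.32, with adjusted p of 0.131 and 0.130, and both were past the threshold with the matrix number as a block (0.0245 and 0.0223). That block called 7 of the 14, beside 33.0% of all tested genes, and the difference was not tested.

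No nuclear co-factor was called among 15 tested (4 with an unadjusted p under 0.05, beside 20.8% of all tested genes). HDAC1, a deacetylase of co-repressor complexes, had a log2 fold change of 0.60 (limma adjusted p = 0.0617). SNW1, a transcription co-regulator and splicing factor that binds the cleaved receptor, had -0.60 (limma adjusted p = 0.0897) and passed with slide as a block (0.0464). With the matrix number as a block both passed (0.00370 and 0.00738), in a fit that called 33.3% of the 15 and 33.0% of all tested genes.

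In the HES and HEY family, beside HES1 and HEY1, 6 of 11 genes were tested and 0 were called by limma. Of the 6, 2 had an unadjusted p under 0.05, beside 20.8% of all tested genes. HES2 read -0.67, -0.40, -1.60 and -0.08 on the control arrays and 0.20, 0.84, 0.86 and -0.24 on the KHSRP siRNA arrays (A_23_P304716). The groups overlapped by KHSRP siRNA replicate 4 alone, and the log2 fold change was 1.104 (SE 0.36, limma adjusted p = 0.131), with 0.00261 under the block by matrix number. BHLHE41, a related repressor, had -0.56 (limma adjusted p = 0.201, and 0.0227 with that block). The same block called 3 of the 6, beside 33.0% of all tested genes, and the difference was not tested. HES3, HES5, HES7, HEY2 and HELT were not well above background on any array.

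The remaining receptors and ligands gave 0 calls in 4 tested genes, and none had an unadjusted p under 0.05. With the matrix number as a block, which called 33.0% of all tested genes, 1 of the 4 was called. This was the ligand DLL3 (adjusted p = 0.0469, and 0.887 without the block), with a log2 fold change of 0.33. NOTCH4 passed the background criterion on 4 of 4 control and 1 of 4 KHSRP siRNA arrays, with a log2 fold change of -0.31 (limma adjusted p = 0.485). MFAP2 and DLK2 had 0.33 and -0.17 (limma adjusted p = 0.815 and 0.718).

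**Figure D4:**
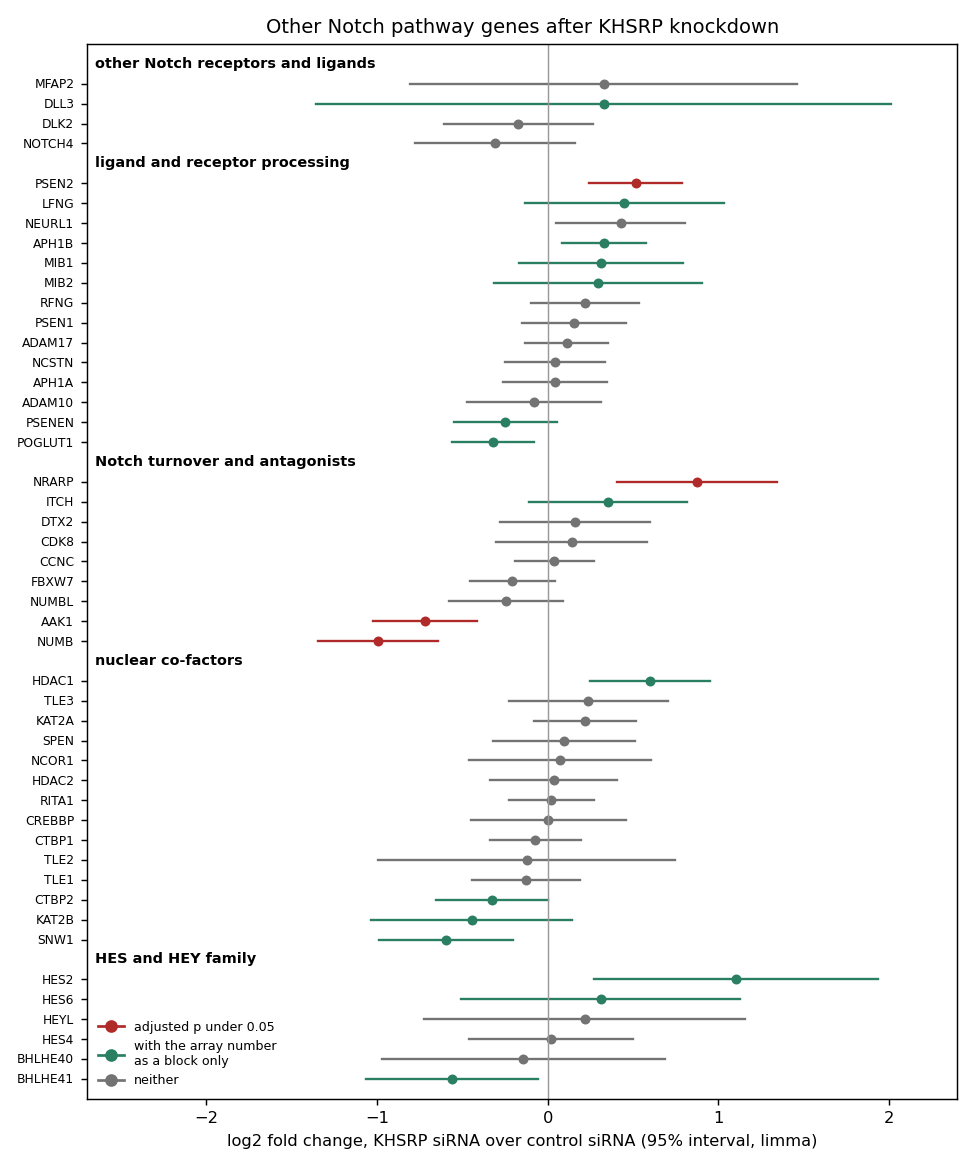
Log2 fold change of KHSRP siRNA over control siRNA for the other tested Notch pathway genes reported here (x axis), by role, with the 95% interval from limma as a line. NUMB and AAK1 lie below 0 and NRARP and PSEN2 above it as the 4 called genes, and most of the others have intervals that hold 0.

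Since Notch acts on squamous differentiation, genes of the differentiated and the basal layer were set beside the pathway. Of 37 genes 25 were tested and 1 was called (4.0%, beside 6.19%), with a median log2 fold change of 0.05. KLF4, a transcription factor of differentiating epithelium, rose from -0.38, -0.34, -0.56 and -0.66 to 0.24, 0.03, -0.14 and 0.26 (A_23_P32233), all KHSRP siRNA arrays lying above all controls. Its log2 fold change was 0.58 (SE 0.14, limma adjusted p = 0.0452), and the call was held in 1 of the 8 fits that left out 1 array, the one without KHSRP siRNA replicate 3, the highest adjusted p of the others being 0.122.

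Among differentiation genes TGM1, a cross-linker of the cornified envelope, had 0.37 (limma adjusted p = 0.330) and ECM1 had 0.34 (0.722, and 0.0311 with the matrix number as a block). Of that list, 12 of 24 genes were too dim to be tested, and KRT1, KRT4, LORICRIN, SPRR3, CRNN, MAL, DSG1 and ZNF750 were not well above background on any array. All 13 basal genes were tested and 0 were called by limma, 0 also at an unadjusted p under 0.05, with 4 under the block by matrix number (30.8%, beside 33.0% of all tested genes). ITGB4, EGFR and DSG3 had log2 fold changes of 0.47, 0.32 and -0.74 (limma adjusted p = 0.326, 0.700 and 0.724, and 0.0227, 0.0235 and 0.00432 with that block).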

How the data were processed

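RNA of KYSE850 cells was hybridised to 8 one-colour Agilent arrays, 4 with control siRNA and 4 with KHSRP siRNA, grouped by their labels. The authors scanned the arrays, and the deposited scanner files give linear fluorescence intensity per spot, background-subtracted and detrended by Agilent Feature Extraction (11.5.1.1 per the file headers, 12.6 per the submitters' processing notes) and not scaled between arrays. The deposited series matrix holds log2 values, attributed to GeneSpring by the methods, and was used as an alternative.

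Control and outlier spots were left out, spots were log2-transformed and averaged per probe, and each array's 75th percentile was subtracted. A probe was tested if a share of 0.5 or more of its spots passed the scanner's background criterion on all 4 arrays of a group. Symbols came from RefSeq (GRCh38.p14) by accession for 27241 of 42405 probes. The brightest tested probe stood for a gene. Probe sequences were not used here. Groups were compared with limma 3.58.1 (lmFit, eBayes, two-sided, no block) in R 4.3.3, with Benjamini-Hochberg adjustment over 18761 tested probes, after tests on simulated data. The simulated arrays varied independently of each other, so those tests do not cover deviations that arrays of the same number share. Tables and the exact permutation test used Python 3.11.15.

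Replicates 1 and 2 of both groups shared a slide, as did replicates 3 and 4. Same-numbered arrays correlated at 0.522, 0.433, 0.833 and 0.842 in their deviations by the numbers of the series matrix, so these numbers were taken as pairs, and at 0.522, 0.433, -0.672 and -0.637 by those of the scanner files. How many arrays there were limits the precision. Array signal at the 75th percentile was 87.7 to 117.

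Members, lists and alternatives were chosen with earlier results of these data known. Outside the members, each list's called genes were named, up to 6, with those of smallest p where fewer than 3 were called. A gene among these is counted but not reported here by name. Alternatives covered scaling, normexp background correction (offset 50), the series matrix, the dim-probe filter and a block by slide or by number. They also covered weights for arrays, a variance trend, the methods' t-test and leaving out each array. The methods name Student's t-test for differences among subgroups and do not tie it to the arrays.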

Additional observations from a re-analysis of the deposited data

Results flagged for a closer look

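Levels were examined in 64 groups of 4 arrays, and in 3 of them 1 array stood apart from the others, where chance gives about 1 in 20. For NRARP (A_33_P3337272) KHSRP siRNA replicate 4 was high at 2.76, with 2.096 as the nearest level, a gap of 0.859 of the group's range. For NUMB (A_23_P88381) KHSRP siRNA replicate 2 was low at -0.71 against -0.33, a gap of 0.946 of the range, and without it the log2 fold change was -0.90 (limma adjusted p = 0.0268). For POGLUT1 (A_32_P26376) control siRNA replicate 4 was low at 0.16 against 0.30, a gap of 0.914 of the range, and without it the log2 fold change was -0.36 (limma adjusted p = 0.157). Without KHSRP siRNA replicate 4, NRARP had 0.69 (limma adjusted p = 0.0586).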

How the results depend on the processing

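The members called, 1 in the reported fit, were 0 with median scaling, without the filter on dim probes, with slide as a block, with the block by scanner number, within either slide and by the methods' t-test, 2 with the replicate block by series matrix number, and 0 to 1 when 1 array was left out. The other pathway genes called, 4, were 2 with median scaling, 1 without the filter, 0 with the replicate block by scanner number and within either slide, 20 with the block by matrix number, and 1 to 2 when 1 array was left out. The squamous genes called, 1, were 0 with median scaling, normexp, no filter, the scanner-number block, either slide, the intensity trend and the t-test, 6 with the matrix-number block, and 0 to 1 when 1 array was left out. The matrix-number block called 33.0% of all tested genes, beside 22.2% of members, 41.7% of other pathway genes and 24.0% of squamous genes. The scanner-number block called 0.874% of all tested genes. KHSRP had -3.37 within each slide, with adjusted p of 0.190 and 0.777, each slide holding 2 arrays against 2.

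NOTCH3, NUMB, AAK1, NRARP, PSEN2 and KLF4 kept their direction in all 23 alternatives. Leaving out 1 array gave log2 fold changes from -0.58 to 0.21 for DLL1, -0.31 to 0.21 for HEY1, -0.0161 to 0.41 for JAG2, -0.0355 to 0.0559 for MAML1, -0.0890 to 0.0114 for NOTCH1 and -0.11 to 0.22 for RBPJ, so their sign was not settled. It also turned for HEY1 with normexp (0.0194), for MAML1 with median scaling (-0.0493), within slide 1 (-0.0405) and with array weights (-0.00092), for NOTCH1 within slide 2 (0.0510) and for RBPJ within slide 1 (-0.0020). The cause was not tested.

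Called probes numbered 1039 with 34.6% higher, and with median scaling 570 with 17.2% higher. They were 156 with the block by scanner number, 5644 with that by matrix number, 319 without the filter and 0 within either slide (unadjusted p under 0.05 for 2112 and 1022 probes). By the methods' t-test 3710 probes passed unadjusted and 1081 after adjustment. HES1, NOTCH4 and the second NOTCH1 probe were near background.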

Other observations

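HES6, a member of the HES family that counters HES1 and is not itself a classical Notch target, had 4 tested probes, all with a positive log2 fold change, from 0.31 to 0.57. None was called by limma (adjusted p from 0.465 to 0.735), and all 4 were with the array number of the series matrix as a block (adjusted p from 0.0113 to 0.0356). That block called 33.0% of all tested genes. Probes of 1 gene on the same arrays are not independent.

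DLL3, a ligand of the Delta family that does not activate receptors on neighbouring cells, ranged as DLL1 did over the arrays. It read 0.57, -0.86, 1.05 and -1.62 on the control arrays and 0.96, -0.28, -1.45 and 1.23 on the KHSRP siRNA arrays (A_24_P57047), with a log2 fold change of 0.33 (SE 0.74, limma adjusted p = 0.887, and 0.0469 with the array number of the series matrix as a block). DLL3 was chosen for description after its values were seen, and that block called 33.0% of all tested genes.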
